A study of Mus musculus with 3 samples.

Results

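Plasminogen activators and serpins were followed across 3 arrays of mouse muscle stem cells (MuSC). The list holds 8 genes, Plat, Plau, Plaur, Serpinb2, Serpine2, Serping1, Serpinf1 and Serpinh1, and was chosen by function with earlier results of these arrays known, so that the values below are a description and no test was made on them. A gene was read from probe sets that the platform annotation assigns to it alone. This gave 11 probe sets for 7 of the 8 genes, among 45037 probe sets and 18193 genes in all, and Serpine2 was not analysed here. Where a gene had 2 probe sets, its main value was taken from the one selected on the highest mean signal over the 3 arrays, and the other served as a check.

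The arrays held RNA of MuSC cultured with oncostatin M (MuSC +OSM), of MuSC cultured without it (MuSC −OSM) and of freshly isolated cells (fresh MuSC), with 1 array for each. The cultures are also called with OSM and without OSM. OSM, a cytokine of the interleukin-6 family, was used at 100 ng/mL, and both cultures lasted 3 days in medium that the sample labels give as 10% FBS. All cells came from wild-type C57BL/6 mice of 8 weeks and were sorted as CD34+ α7 integrin+ cells after enzyme digestion of muscle, following depletion of cells with CD45, CD11b, CD31 or Sca1, and the number of mice behind an array is not stated in the sources used here. With 1 array for each condition no difference has a replicate check, no p-value can be given, and precision is limited by the number of arrays.

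Plasmin is a protease of broad specificity that dissolves fibrin and degrades matrix, and it is cut from plasminogen by the tissue-type activator (tPA, from Plat) and the urokinase-type activator (uPA, from Plau), which is held at the cell surface by its receptor (uPAR, from Plaur). Serpins are proteins of one fold, most of which inactivate serine proteases by acting as a bait that traps the enzyme, while some have lost this activity and act as chaperones or signals. In skeletal muscle, plasmin formation is known for its part in clearing fibrin and remodelling matrix after injury.

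Signals are MAS5 values on a linear scale in arbitrary units. For ratios, signals below 40, the median of all signals, were raised to this floor, and "at least" marks each fold whose lower signal lay below 40. A gene counted as measured in a comparison when at least 1 of both arrays was above the floor. The median signal was 32 with OSM, 36 without OSM and 53 in fresh MuSC, and 45.9%, 47.3% and 56.8% of probe sets passed the floor in this order. RNA integrity was read from the β-actin control, whose 3′ over 5′ signals gave 1.41, 1.40 and 2.35. The Gapdh control gave 0.905, 1.14 and 1.36 in the same order, a smaller distance of fresh MuSC from the cultures. As a measure of technical spread, 2 probe sets of the same gene differed in their log2 ratio by a median of 0.33 for MuSC +OSM over MuSC −OSM, 0.50 for MuSC −OSM over fresh MuSC and 0.47 for MuSC +OSM over fresh MuSC. The 90th percentiles of this difference were 0.89, 1.53 and 1.38, and none of these values covers the error between arrays or cultures. Of 12 satellite cell and myoblast markers, 4 were at least 2-fold higher and 6 lower in each culture than in fresh MuSC. Among all measured genes, 15.0% were higher and 20.4% lower without OSM, and 13.8% and 17.2% with OSM. Pax7, the transcription factor that defines satellite cells, had 431 with OSM, 282 without OSM and 4006 in fresh MuSC, and Myog, a factor of differentiating myoblasts, had 14369, 21248 and 1530. Itga7, the α7 integrin gene of the sort, had 1238, 1808 and 499. Cd34, the other gene of the sort, went the opposite way, at 15, 34 and 2222, and was under the floor in both cultures. Between the cultures, 1 of 10 measured markers was at least 2-fold apart, beside 6.07% of all genes higher and 4.39% lower. This was the myogenic factor gene Myf5, which was 3.31-fold higher with OSM at 1855, 561 and 7016.

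With OSM, 3 of the 7 genes were at least 2-fold higher than without it, namely Serpinb2, Serping1 and Plat, of which Plat was no longer 2-fold apart with a floor of 183, leaving 2. Over all 11271 measured genes 6.07% were at least 2-fold higher. None of the 7 was at least 2-fold lower, against 4.39% of all genes, and the other 4 lay within 2-fold. The median log2 ratio of the 7 genes was 0.67, and that of all measured genes was -0.01. Since the genes were chosen with such values in view, nothing is read from these shares.

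In MuSC −OSM, Serping1, Plat and Plau were at least 2-fold lower than in fresh MuSC, as were 20.4% of 12755 measured genes. Only Serpinf1 among 6 measured genes was at least 2-fold higher, as were 15.0% of all genes. In MuSC +OSM, Serping1, Plau and Plat were at least 2-fold lower than in fresh MuSC, beside 17.2% of 12483 measured genes, and Serpinb2 and Serpinf1 were at least 2-fold higher, beside 13.8%. The median log2 ratio over fresh MuSC was -0.64 for 6 measured listed genes in MuSC −OSM and 0.51 for 7 in MuSC +OSM. These medians cover different genes, as Serpinb2, at 4.88, entered only the MuSC +OSM median, and so they cannot be compared. The median of all genes was -0.14 in both. Each pair of these comparisons shares an array, so their values are given side by side and were not set against each other.

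**Figure D1:**
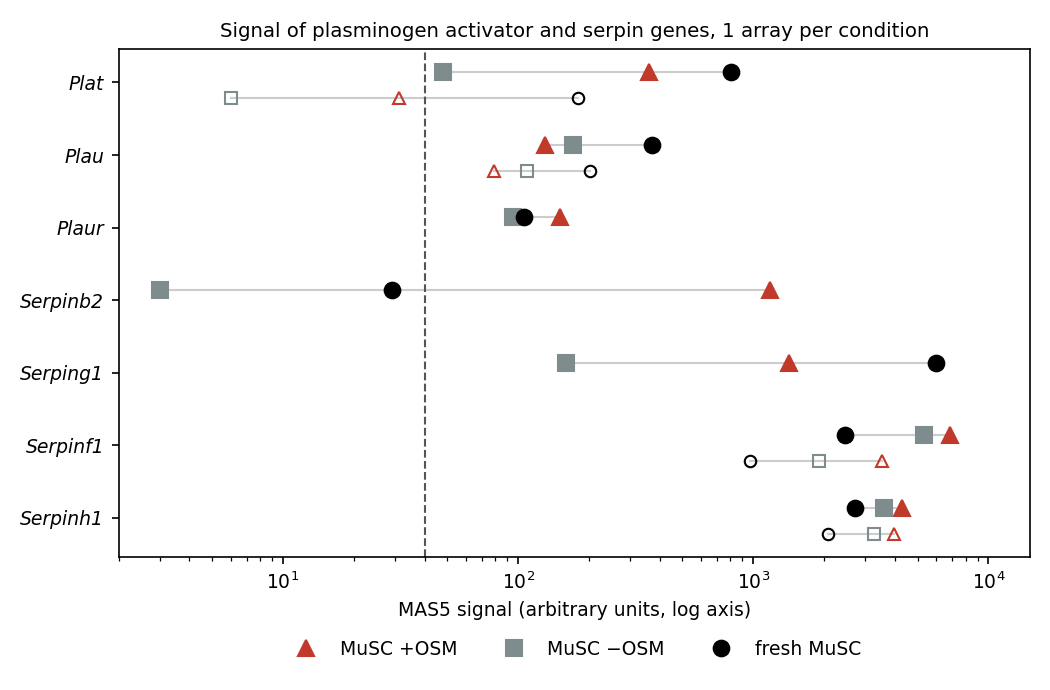
MAS5 signal (arbitrary units, log axis) of 7 genes, with MuSC +OSM as red triangles, MuSC −OSM as gray squares and fresh MuSC as black circles, 1 array each. Filled symbols are the main probe set, open symbols the other probe set of the 4 genes that have 2, and the dashed line marks the floor of 40, which Serpinb2 passes in MuSC +OSM at 1175 and not in the other conditions, at 3 and 29.

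Among the proteases, Plat was low without OSM. Its main probe set gave a signal of 361 with OSM, 48 without OSM and 804 in fresh MuSC. The level without OSM was thus just above the floor, and that with OSM lay between both other conditions. Plat was 7.52-fold higher with OSM than without (log2 ratio 2.91), and 38 of the 11271 measured genes had a higher ratio. It was 16.8-fold lower in MuSC −OSM and 2.23-fold lower in MuSC +OSM, both relative to fresh MuSC. The other Plat probe set had 31, 6 and 180 in the same order of conditions. It ran in the same order but was above the floor in fresh MuSC only, where the level was at least 4.50-fold above that of either culture. It thus gives no ratio between the cultures, and the difference with OSM rests on 1 probe set. With the floor at the 75th percentile of all signals, 183, the log2 ratio of Plat between the cultures was 0.98, below 2-fold. With each array divided by its median signal, the log2 ratio of MuSC +OSM to fresh MuSC was -0.43 instead of -1.16, which is within 2-fold.

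Plau ran differently from Plat. Its signal was 130 with OSM, 171 without OSM and 372 in fresh MuSC, and the other probe set gave 79, 109 and 202. Both probe sets were lowest with OSM and highest in fresh MuSC. Plau was 1.32-fold lower with OSM than without on the main probe set (log2 ratio -0.40) and 1.38-fold lower on the other. Of all measured genes, 55.0% had no larger change in either direction. Relative to fresh MuSC, Plau was 2.18-fold lower in MuSC −OSM and 2.86-fold lower in MuSC +OSM, with 1.85-fold and 2.56-fold on the other probe set. The first of these values lay below 2-fold on the other probe set and under both other scalings of the arrays, and the second with median-scaled arrays, where its log2 ratio was -0.79.

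Plaur, the gene of the urokinase receptor, had 151 with OSM, 95 without OSM and 106 in fresh MuSC. Its 3 signals lay close together and all were above the floor. With OSM the signal was 1.59 times that without, and 12.1% of measured genes had a higher ratio. Plaur was 1.12-fold lower in MuSC −OSM and 1.42-fold higher in MuSC +OSM than in fresh MuSC. The direction of the difference between MuSC −OSM and fresh MuSC depended on the scaling, with a log2 ratio of -0.16 as deposited, 0.40 with median-scaled arrays and 0.35 after quantile normalization. With median-scaled arrays Plaur also passed 2-fold in MuSC +OSM over fresh MuSC, at a log2 ratio of 1.24.

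Serpinb2, also called plasminogen activator inhibitor 2, inactivates uPA and tPA. It is known as an inducible gene of monocytes and macrophages. Its only probe set had a signal of 1175 with OSM, 3 without OSM and 29 in fresh MuSC. It was above the floor in MuSC +OSM only, and there by a wide margin. With OSM, Serpinb2 was at least 29.4-fold above its level in either other condition. MuSC −OSM and fresh MuSC cannot be compared for Serpinb2, as both signals were under the floor. The size of the bound follows the floor, with a log2 ratio of 5.88 when it was halved and 2.68 when it was set at the 75th percentile of all signals, 183.

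Leukocyte markers are given beside this result. Ptprc, the CD45 gene of all leukocytes, had 7 with OSM, 2 without OSM and 1 in fresh MuSC, and Itgam, the CD11b gene of myeloid cells, had 1, 26 and 23. Both were under the floor on every array. Of 11 leukocyte markers with a probe set, 3 were above the floor with OSM, 5 without OSM and 4 in fresh MuSC, and their summed signals were 339, 444 and 1554. Between the cultures 5 were measured. Csf1r, a macrophage receptor gene, was 2.40-fold higher with OSM, at 149 against 62 without OSM, and Adgre1, the F4/80 gene of macrophages, was 2.02-fold lower, at 41 against 83. Lyz2, a lysozyme gene of myeloid cells, had 13 in each culture and 1204 in fresh MuSC. The part of leukocytes in the Serpinb2 signal was not tested.

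The promoter of Serpinb2 is shown because its signal set MuSC +OSM most apart. RefSeq sequences from 250 bases before to 50 bases after the start site were at hand for Serpinb2, Plaur, Serpinf1 and Serpinh1, or 4 of the 7 genes. Windows of 300 bases were searched on both strands for TTCNNNGAA, the letters bound by STAT proteins, for TGANTCA and for TATAAA, the TATA box. TGANTCA takes in the letters bound by AP-1 but leaves the middle base open, and is thus a looser pattern. RefSeq gives 2 start sites for Serpinb2, and their windows overlap. Both windows held the same 3 matches, 1 for each motif, which do not overlap one another. Relative to the downstream start site the TATAAA match began at -116. The first line is the stretch before the upstream start site, chr1:107511173-107511422 on the plus strand of GRCm38.p6, with TGANTCA and TATAAA matches in capitals. The second line runs on from that start site, chr1:107511423-107511451, with the match to TTCNNNGAA in capitals. The third line is part of the Plaur promoter, chr7:24462384-24462450 on the plus strand, shown because it holds another match to TGANTCA, in capitals.
Serpinb2 before the start: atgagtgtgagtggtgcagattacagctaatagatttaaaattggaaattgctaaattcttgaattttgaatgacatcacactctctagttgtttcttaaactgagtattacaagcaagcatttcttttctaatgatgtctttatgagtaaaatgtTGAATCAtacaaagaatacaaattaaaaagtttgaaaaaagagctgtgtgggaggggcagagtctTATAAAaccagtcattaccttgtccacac
Serpinb2 after the start: agtgccagctTTCCAAGAAgcatttcctg
Plaur: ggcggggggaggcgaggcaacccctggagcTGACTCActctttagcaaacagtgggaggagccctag

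In Serpinb2 the TGANTCA match began at position -94 and the TATAAA match at -29 relative to the upstream start site, and the TTCNNNGAA match at position 11, counted from 1 at the start site. In Plaur the TGANTCA match began at -69. The windows of Serpinf1 and Serpinh1 held none of the 3. Of 32851 windows of all genes, 8.30% held TTCNNNGAA, 7.81% held TGANTCA and 13.6% held TATAAA. A match is a description of the letters in this window, and binding of a factor was not measured here.

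Serping1 encodes the C1 inhibitor, which blocks the proteases C1r and C1s of complement as well as plasma kallikrein, and inhibits tPA and plasmin weakly. It had signals of 1420 with OSM, 160 without OSM and 5973 in fresh MuSC, from 1 probe set. All 3 signals were well above the floor and far apart. Serping1 was 8.88-fold higher with OSM than without (log2 ratio 3.15), and 27 of 11271 genes had a higher ratio. It was 37.3-fold lower without OSM than in fresh MuSC, where 44 of 12755 genes had a lower ratio, and 4.21-fold lower with OSM than in fresh MuSC. Plat and Serping1 thus had the same order of conditions, highest in fresh MuSC, next with OSM and lowest without.

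Markers of other cell types are given beside Plat and Serping1. Over all measured genes, 20.4% were at least 2-fold lower and 15.0% higher without OSM than in fresh MuSC. With OSM these shares were 17.2% and 13.8%. Of 9 fibroblast markers, 8 were at least 2-fold lower without OSM than in fresh MuSC, and their summed signals were 2921 with OSM, 2168 without OSM and 31695 in fresh MuSC. Dcn, the matrix proteoglycan decorin, had 373 with OSM, 32 without OSM and 12179 in fresh MuSC. All 4 markers of Schwann cells were 2-fold or more lower in both cultures, with sums of 461, 360 and 12449.

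Of 6 tenocyte markers, 5 were 2-fold or more lower in both cultures than in fresh MuSC. The exception was Scx, a transcription factor of tendon, which was higher in both, at 104 with OSM, 327 without OSM and 48 in fresh MuSC. Of 10 endothelial markers, 0 were above the floor with OSM, 1 without OSM and 5 in fresh MuSC, and 3 of 5 measured were 2-fold or more lower in either culture than in fresh MuSC, namely Tek, Cdh5 and Esam. Of 8 markers of pericytes and smooth muscle, 7 were measured without OSM over fresh MuSC, with 2 higher and 3 lower. Their sums of 16745, 22084 and 11668 came mostly from Acta2, a smooth muscle actin, at 13114, 19053 and 6543.

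Between the cultures, 4 markers of these lists, beside 6.07% of all measured genes, were 2-fold or more higher with OSM. They were Col1a1 and Dcn among 7 measured fibroblast markers, Fmod among 2 tenocyte markers and Pdgfrb among 6 markers of pericytes and smooth muscle. Of 4 measured Schwann cell markers and 1 endothelial marker, 0 were higher. Fmod had 482 with OSM, 153 without OSM and 4308 in fresh MuSC, the order of conditions of Plat and Serping1. Pdgfrb had 738 with OSM, 139 without OSM and 661 in fresh MuSC and was thus also lowest without OSM. Scx, the other measured tenocyte marker, was 3.14-fold lower with OSM, beside 4.39% of all genes at least 2-fold lower. The part of such cells in the values of Plat and Serping1 was not tested, and in such bulk samples fewer cells of a type and less RNA per cell cannot be told apart.

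**Figure D2:**
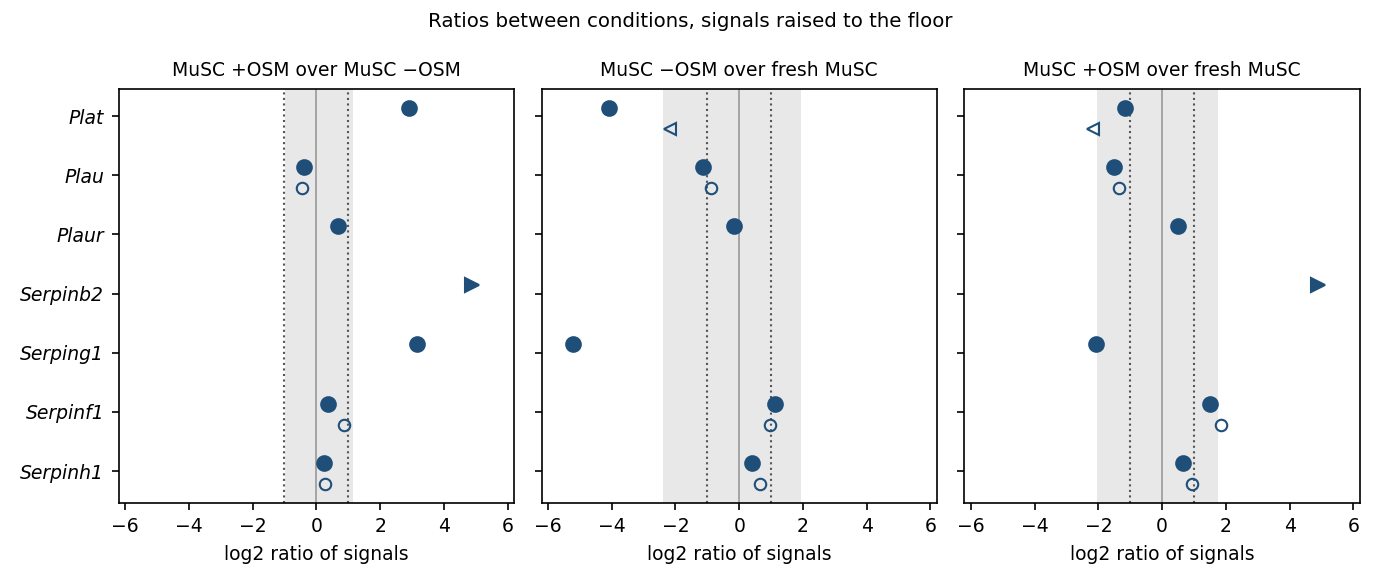
Log2 ratios of MAS5 signals in 3 comparisons, with signals under 40 raised to 40, for the main probe set (filled) and the other probe set (open) of each gene. Triangles are bounds where the lower signal was under the floor, dotted lines mark 2-fold, and the gray band spans the 5th to 95th percentile of all measured genes, outside of which lie Serpinb2, Serping1 and Plat on the left, at 4.88, 3.15 and 2.91.

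Of the serpins without inhibitory activity, Serpinf1 encodes pigment epithelium-derived factor, a secreted protein that restrains blood vessel growth. Its signal was 6883 with OSM, 5301 without OSM and 2453 in fresh MuSC, and the other probe set gave 3514, 1912 and 967. Both probe sets were highest with OSM and lowest in fresh MuSC, opposite to Plau. Serpinf1 was 2.16-fold higher in MuSC −OSM and 2.81-fold higher in MuSC +OSM than in fresh MuSC, with 1.98-fold and 3.63-fold on the other probe set. Between the cultures it was 1.30-fold higher with OSM on the main probe set and 1.84-fold on the other, and this disagreement of 0.38 and 0.88 in log2 ratio leaves the size of that difference unsettled. After quantile normalization the log2 ratio of MuSC −OSM to fresh MuSC was 0.81, below 2-fold.

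Serpinh1 encodes HSP47, a chaperone of the endoplasmic reticulum that binds procollagen. Its signal was 4281 with OSM, 3600 without OSM and 2709 in fresh MuSC, with 3967, 3260 and 2081 on the other probe set. The order of conditions was that of Serpinf1, with a narrower range. Serpinh1 was 1.19-fold higher with OSM than without, and 31.6% of measured genes had a higher ratio. Relative to fresh MuSC it was 1.33-fold higher in MuSC −OSM and 1.58-fold higher in MuSC +OSM, and 1.57-fold and 1.91-fold higher on the other probe set. With median-scaled arrays the last comparison reached a log2 ratio of 1.39 on the main probe set, above 2-fold.

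The scaling of the arrays touches each comparison with fresh MuSC. Dividing each array by its median moved the median log2 ratio of all genes to 0.57, against -0.14 as deposited, for MuSC +OSM over fresh MuSC, and to 0.37, against -0.14, for MuSC −OSM over fresh MuSC. For MuSC +OSM over MuSC −OSM it moved to 0.16, against -0.01. Of genes at least 2-fold apart, 58.0% were higher with OSM than without as deposited, 72.2% with median-scaled arrays and 54.4% after quantile normalization. In MuSC −OSM over fresh MuSC these shares were 42.4%, 70.0% and 53.3%, and in MuSC +OSM over fresh MuSC 44.5%, 80.2% and 54.8%. The ratios of Serpinb2, Serping1 and Plat between the cultures stayed above 2-fold under both scalings.

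Partners of the plasminogen system were read from a list of 35 genes of receptors, cofactors and related proteases and inhibitors, of which 31 had a probe set. Of these, the 20 genes measured between the cultures had a median log2 ratio of 0.32. With OSM 0 were at least 2-fold lower, beside 4.39% of all genes, and 4 were higher, beside 6.07%. These were Thbd, Mrc2, Itgb5 and F2r, of which Itgb5 and F2r are named after their values were seen. Thbd encodes thrombomodulin, which turns thrombin from clotting to protein C activation, and had 198 with OSM, 41 without OSM and 288 in fresh MuSC. It was 4.83-fold higher with OSM. The size of this fold depends on the floor, as the Thbd signal of 41 without OSM was just above it. Mrc2, a collagen receptor that associates with uPAR, had 232 with OSM, 113 without OSM and 791 in fresh MuSC, or 2.05-fold higher with OSM, and its log2 ratio was 0.88 after quantile normalization. F2r, the main thrombin receptor gene, had 3313, 1513 and 7880, and the integrin gene Itgb5 had 587, 259 and 515. Another F2r probe set gave 2119, 1248 and 5047, less than 2-fold apart between the cultures. An additional Itgb5 probe set passed 2-fold, at 261 with OSM against 108 without OSM. Others of Itgb5 did not, at 365 against 254 and 450 against 238. The other Mrc2 probe set, at 4, 6 and 63, was under the floor in both cultures. S100a10 and Lrpap1, named after their values were seen, lay just short of 2-fold in opposite directions. S100a10 was 1.98-fold lower with OSM, at 1962 against 3875, and its other probe sets gave 54 against 108 and 2350 against 3274. Lrpap1 was 1.94-fold higher with OSM, at 2761 against 1423.

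In MuSC −OSM, 8 of 24 measured partner genes were at least 2-fold lower than in fresh MuSC and 0 were higher (median log2 ratio -0.86). The shares of all genes were 20.4% lower and 15.0% higher. Vtn, which encodes the adhesion protein vitronectin, a ligand of uPAR, had 42 with OSM, 34 without OSM and 1018 in fresh MuSC. It was at least 25.4-fold lower in MuSC −OSM and 24.2-fold lower with OSM than in fresh MuSC. Sorl1, a sorting receptor of the LDL receptor family, had 16 with OSM, 5 without OSM and 404 in fresh MuSC, and an additional probe set gave 6, 1 and 266. The last Sorl1 probe set gave 14, 40 and 42 and thus did not show this difference. In MuSC +OSM 6 of 24 partner genes were at least 2-fold lower than in fresh MuSC, beside 17.2% of all genes. Only 1 was higher, beside 13.8% of all genes. It was the integrin gene Itgb1, named after its value was seen, with 5730 in MuSC +OSM and 1820 in fresh MuSC. Plg, the gene of plasminogen itself, named after its values were seen, had 17 with OSM, 35 without OSM and 10 in fresh MuSC, all under the floor.

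**Figure D3:**
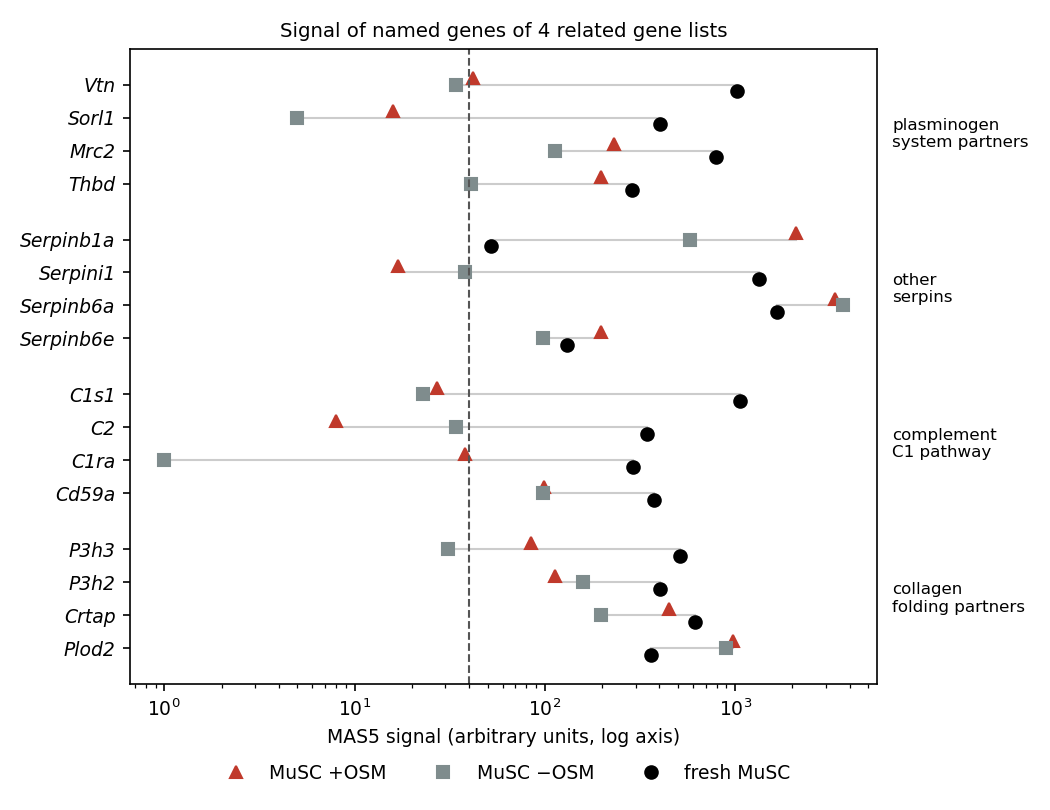
MAS5 signal (arbitrary units, log axis) of genes named by rule from 4 lists, with MuSC +OSM as red triangles, MuSC −OSM as gray squares and fresh MuSC as black circles, 1 array each, and the floor of 40 dashed. Serpinb1a lies at 2091 with OSM, 582 without OSM and 52 in fresh MuSC, whereas Serpini1 passes the floor only on the array of fresh MuSC, at 1326.

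The remaining serpin family comprised 36 genes with a probe set of their own, and 15 of these passed the floor on at least 1 array. With OSM, 2 of 9 measured genes, Serpinb1a and Serpinb6e, were at least 2-fold higher than without it and 0 were lower (median log2 ratio 0.26). The shares of all genes were 6.07% higher and 4.39% lower. Serpinb1a, an inhibitor of neutrophil proteases, had 2091 with OSM, 582 without OSM and 52 in fresh MuSC, and its other probe set gave 463, 193 and 40. Serpinb1a was 3.59-fold higher with OSM than without, and 11.2-fold higher in MuSC −OSM than in fresh MuSC. The size of the latter fold depends on the floor, as the signal of 52 in fresh MuSC was near it. Under both other scalings this signal was 39, below the floor. Serpinb6e was 2.01-fold higher with OSM, at 197 against 98 in MuSC −OSM, just past 2-fold, and its log2 ratio was 0.86 after quantile normalization. In MuSC −OSM, 2 of 13 genes were above fresh MuSC by 2-fold or more and 3 were below, beside 15.0% and 20.4% of all genes. Serpini1 encodes neuroserpin, an inhibitor of tPA best known from neurons, and had 17 with OSM, 38 without OSM and 1326 in fresh MuSC. The level was at least 33.1-fold lower in either culture than in fresh MuSC. A second probe set gave 18, 27 and 691, while another stayed under the floor at 4, 12 and 1. Serpinb6a had 3344 with OSM, 3702 without OSM and 1649 in fresh MuSC.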

How the data were processed

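RNA was amplified with 3′ IVT Express reagents and hybridized to Affymetrix MOE_430_2 arrays, and the scans were condensed by MAS5 (version not given in the sources used here). Deposited signal intensity is linear, with 1 value for each probe set and a mean of 198 to 199 on each array after trimming 2% at each end. Conditions were taken from the sample labels. The genes and gene lists were chosen with earlier results of these data known.

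Python 3.11.15 was used for ratios, with pandas 2.3.3, numpy 2.4.6 and scipy 1.17.1, and matplotlib 3.10.9 for figures. In total 64 control probe sets were left out, and 34945 of 45037 probe sets name 1 gene in the annotation, 932 name several and 9160 have none listed. All 7 genes were found by identifier in the mouse gene table, with 0 symbols changed. From each related list the rule named up to 4 genes with the largest ratios among those at least 2-fold apart that reached a signal of 160 on 1 array. It also named, for each listed gene at least 2-fold apart between the cultures, the 2 genes of most similar pattern. The code that counts folds was run on simulated arrays with known folds, which is no test of the measured values. Alternatives were 2 scalings of the arrays, 2 floors, the median over probe sets, each other probe set, and 3-fold in place of 2-fold. No array could be left out, as each is the only one of its condition.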

Additional observations from a re-analysis of the deposited data

How the results depend on the processing

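No paired analysis was possible because each condition has 1 array. Of the ratios of the 7 genes, 32 of 36 values under alternatives lay within 1.5-fold of the reported one for MuSC +OSM over MuSC −OSM, 30 of 33 for MuSC −OSM over fresh MuSC and 30 of 38 for MuSC +OSM over fresh MuSC. None of their differences of at least 2-fold changed direction. For Plat the log2 ratio between the cultures was 0.98, no longer 2-fold, with the floor at 183 and 1.46 as the median over both probe sets, against 2.91 as reported. That floor and the other probe set, under the floor in both cultures, limit the Plat ratio by construction. With median-scaled arrays, 4 of the 7 genes were 2-fold or more higher and 1 lower in MuSC +OSM over fresh MuSC, beside 4047 higher and 997 lower of 11974 genes. At 3-fold, 1 was higher and 1 lower, beside 759 and 1050 of 12483. In MuSC −OSM over fresh MuSC, after quantile normalization 0 of the 7 were higher and 2 lower, beside 2386 and 2087 of 12277, and at 3-fold 0 were higher and 2 lower, beside 947 and 1376 of 12755.

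Over all genes in MuSC +OSM over MuSC −OSM, 300 were higher and 221 lower of 7014 with the floor at 183, 438 were higher as the median over probe sets, 935 were lower with the floor halved, and 255 were higher and 136 lower of 11271 at 3-fold. In MuSC −OSM over fresh MuSC, 3437 were higher and 1473 lower of 12209 with median-scaled arrays, and 1260 were lower of 7861 with the floor at 183. In MuSC +OSM over fresh MuSC, 1128 were higher and 978 lower of 7826 with the floor at 183, and 3296 were lower with the floor halved. Of 60 list medians under alternatives, 14 moved by more than 1.5-fold. The cause of these shifts was not tested. Signals near or under the floor limit Plat without OSM, and make the fold of Serpinb2 a bound.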

Other observations

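Genes around the targets of Serping1 and Serpinh1 were also read. Of 13 genes of the complement C1 pathway with a probe set, 4 were at least 2-fold lower and 2 higher among 7 measured in MuSC −OSM over fresh MuSC. Among all genes 20.4% were lower and 15.0% higher. C1s1 and C1ra, which encode the proteases that the C1 inhibitor blocks, had 27 and 38 with OSM, 23 and 1 without OSM and 1055 and 292 in fresh MuSC, and passed the floor on the array of fresh MuSC alone. C2, a substrate of C1s, had 8 with OSM, 34 without OSM and 343 in fresh MuSC. Cd59a, which blocks the terminal complement pore, had 99 with OSM, 98 without OSM and 373 in fresh MuSC. Between the cultures, 2 of 4 measured genes were 2-fold or more lower with OSM, beside 4.39% of all genes. These were Cd55 at 79 against 246 and Masp1 at 5 against 98 without OSM, both picked once their values were known. Of C1s1, C1ra, C2 and Cd59a none was 2-fold or more higher with OSM than without, and only Cd59a was above the floor in a culture. The other Cd59a probe set gave 69 with OSM, 28 without OSM and 230 in fresh MuSC. C1ra was close to the floor with OSM and passed it under both other scalings, at 48 and 47. Its log2 ratio between the cultures was then 0.25 and 0.22.

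Of 18 genes that fold or modify collagen, all measured with OSM, 3 were at least 2-fold higher with OSM than without and 0 lower, with a median log2 ratio of 0.30. These were Crtap, at 449 with OSM against 197 without OSM, P3h3, at 85 against 31, and Plod3, at 451 against 202, of which Plod3 was picked once its value was known. Among all genes 6.07% were higher and 4.39% lower. Crtap is a partner of prolyl 3-hydroxylase, P3h3 a member of the prolyl 3-hydroxylase family and Plod3 a lysyl hydroxylase. Plod2, another lysyl hydroxylase gene, had 971 with OSM, 892 without OSM and 360 in fresh MuSC, the order also seen for Serpinh1. Its other probe set gave 845, 315 and 128, more than 2-fold higher with OSM than without, unlike the main one. The size of the Plod2 difference between the cultures is thus unsettled. P3h2 had 113, 159 and 401 in this order of conditions.

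By distance of the centred log2 signals over the 3 arrays, among 8494 genes, the patterns most like Plat were those of Gstt1 (distance 0.11) and Ier3 (0.23), and Ier3 had 2375 with OSM, 253 without OSM and 4676 in fresh MuSC. Nearest to Serping1 were Htra1 (0.20) and Car12 (0.31), with Htra1 at 429, 53 and 1627. Gstt1 had 272, 23 and 610, and Car12 had 375, 26 and 1184. Both were under the floor without OSM, so that their distances depend in part on the floor. Nearest to Serpinb2 were Csf2rb2 (0.77), at 681, 48 and 9, and Xdh (0.86), at 568, 29 and 38. Each distance rests on 3 arrays.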
